A study of Saccharomyces cerevisiae with 12 samples.

Results

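The zinc regulon of budding yeast (Saccharomyces cerevisiae) was followed through 10 named genes, picked by name or systematic name from the 7033 features of a TPM table of 12 RNA-seq libraries. The 10 were the regulator ZAP1, the zinc transporter genes ZRT1, ZRT2, ZRT3 and ZRG17, the zinc-regulated genes ADH4, ZPS1 and IZH2, and the near-identical pair VEL1 and YOR387C. All 10 had a row and all 10 passed the expression filter. VEL1 drew attention because it was called lower with the R787G plasmid than with the empty vector in an earlier analysis of these libraries. That contrast is therefore given as a description, and nothing is read from the calls of the 10 genes in it.

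Zap1 is a transcription factor that senses cellular zinc and is active when zinc is scarce. It binds zinc-responsive elements in the promoters of its targets, raises zinc uptake at the plasma membrane and zinc release from the vacuole, and activates its own gene. Some targets are enzymes or cell-surface proteins with no known part in zinc transport.

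Each library came from a W303 culture of mating type a with the usual marker mutations of that strain in the genes ADE2, HIS3, TRP1, LEU2 and CAN1. In all groups, WT included, the chromosomal copy of SCC2 (the cohesin loader gene) was degron-tagged (SCC2-AID*-6FLAG-HYG), and OsTIR1, which directs the degradation of such tags, was expressed from the ADH1 promoter (ura3-1::ADH1-OsTIR1). The 4 groups of 3 libraries differed in a HIS3 plasmid, pRS413. It held scc2-R787G or scc2-G1242V with a 7MYC tag, no SCC2 insert (empty vector, labelled null), or SCC2-7MYC (WT). Cultures in medium without histidine started the day near an OD600 of 0.1, received 1 mM auxin (3-indoleacetic acid) after 90 min and were sampled 3 h later at an OD600 of 0.4 to 0.8. The labels do not say whether the libraries of a group came from separate transformants. They give 2 cultures for the empty vector, for which 3 libraries were used.

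Levels are scaled TPM (transcript abundance per length, normalised to a fixed total) after division by a per-library factor (0.904 to 1.19). Read depth is unknown, so no counting intervals are given. SCC2 RNA, which sums the chromosomal and plasmid copies, was 86.5 to 99.6 scaled TPM in R787G, 12.1 to 12.8 in the empty vector and 109 to 128 in WT. The libraries labelled G1242V held 51.2, 93.2 and 12.4, so library 3 had the SCC2 level of the empty vector and library 2 that of R787G. HIS3, the plasmid marker, was at 2498, 1042 and 2780 scaled TPM in these 3, against 872 to 1353 in R787G, 2423 to 3500 in the empty vector and 796 to 900 in WT. All 7 listed markers of mating type a were above 0 in every library, and their sum (473 to 744 scaled TPM) exceeded that of the 4 alpha markers (32.6 to 56.1). The 25S ribosomal RNA feature RDN25-1, left after depletion, was at 151 to 217 in R787G, 54.1 to 201 in the libraries labelled G1242V, 171 to 202 in the empty vector and 582 to 980 in WT. Its part in the values below was not tested.

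Matches to the element that Zap1 is known to bind are shown first, so that each gene's levels can be read beside its upstream letters. The zinc-responsive element was searched as ACCTT and AAGGT with any 1 base between them, which is its own reverse complement, in the 500 bases before each start codon of the R64 reference. That reference is of strain S288C, and W303 may differ from it. An exact match stood before 2 of the 10 genes, against 0.150% of 6000 genes. With up to 1 mismatch it was 6 of 10, against 1.97%, and with up to 2 mismatches 8 of 10, against 19.3%. The 10 were picked as zinc-responsive genes and the element as that of Zap1. An excess was thus built into the choice, and nothing is read from these shares. The sites with up to 1 mismatch are shown with 9 bases on either side, the match in capitals, on the strand of the gene.
ZAP1, chrX:333198-333226, minus strand: cagtcatctACCCTAAAGGTcatgatgaa
ZRT1, chrVII:20650-20678, plus strand: accaaagatACCCTCAAGGTtctcatctg
ZRT1, chrVII:20765-20793, plus strand: acatatttgACCTTGAAGGTcatggaaag
ZRT2, chrXII:404354-404382, minus strand: agggacataACCCTAAAGGTtatatgcga
ZRT2, chrXII:404305-404333, minus strand: tttttcacaACCTTTAGGGTacattgccc
ZRT3, chrXI:118629-118657, plus strand: gtgacaacaACCTTAAGGGTaatggactt
ZRG17, chrXIV:699496-699524, minus strand: aaatgatgaACCTTGAAGGTatttttgtt
ZPS1, chrXV:34320-34348, plus strand: ttataattgACCTTCAGGGTtaggaccct
ZPS1, chrXV:34335-34363, plus strand: agggttaggACCCTGAAGGTtttttgtag

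These matches are letters in a window and were not tested for binding. ZRT1 and ZRG17 had the exact matches, 194 and 74 bases before the start codon. ZRT1, ZRT2 and ZPS1 each had 2 sites of this kind. ADH4 and IZH2 had no match with up to 2 mismatches in the window, which says only that these letters are not there. The stretch from 460 to 161 bases before the ZRT1 start codon holds both ZRT1 sites, here in capitals.
ZRT1, chrVII:20518-20817, plus strand: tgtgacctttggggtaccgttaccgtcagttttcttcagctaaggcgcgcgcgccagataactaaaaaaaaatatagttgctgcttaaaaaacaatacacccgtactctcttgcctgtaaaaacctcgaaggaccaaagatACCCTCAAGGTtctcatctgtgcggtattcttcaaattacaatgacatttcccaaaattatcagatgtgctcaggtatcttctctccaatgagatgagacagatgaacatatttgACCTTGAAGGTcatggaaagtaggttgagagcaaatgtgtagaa

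VEL1 (YGL258W, chrVII:11110-11730) and YOR387C (chrXV:1069621-1070241) are paralogs whose proteins have no established molecular function; VEL1 is named for a part in the velum, a surface film of yeast. Their coding sequences of 621 bases differ at 47 positions (92.43% identity), and 493 of the 500 bases before their start codons aligned as identical. In the stretch from 200 to 101 bases before the start codon they differ at 1 base, in capitals, next to a match to the element with 2 mismatches, which both carry.
VEL1, chrVII:10910-11009, plus strand: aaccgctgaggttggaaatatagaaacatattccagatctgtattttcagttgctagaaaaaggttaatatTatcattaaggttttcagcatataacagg
YOR387C, chrXV:1070342-1070441, minus strand: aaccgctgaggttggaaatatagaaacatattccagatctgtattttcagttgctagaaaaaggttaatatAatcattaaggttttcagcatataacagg

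Because libraries were read as 50 bp single reads, such a pair can share reads. Of the 572 windows of 50 bases in each coding sequence, 13 (2.27%) also occur in the other gene, and no window of the other 8 genes occurs elsewhere in the genome. Reads with mismatches could still be split between the pair, so both were also tested as 1 summed feature. The part of the coding sequence with the most differences, bases 498 to 617, shows what tells the reads apart, with the 15 differing bases in capitals.
VEL1, chrVII:11607-11726, plus strand: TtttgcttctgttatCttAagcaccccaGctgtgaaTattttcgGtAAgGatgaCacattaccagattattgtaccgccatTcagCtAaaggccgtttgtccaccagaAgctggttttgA
YOR387C, chrXV:1069625-1069744, minus strand: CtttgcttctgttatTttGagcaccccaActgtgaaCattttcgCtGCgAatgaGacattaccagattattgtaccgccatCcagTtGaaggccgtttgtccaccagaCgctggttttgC

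The pair had the widest range of the 10 genes. VEL1 stood at 37.1, 33.7 and 7.62 scaled TPM in R787G, at 72.6, 35.5 and 90.8 in the libraries labelled G1242V, at 141, 145 and 86.0 in the empty vector, and at 41.9, 47.7 and 22.2 in WT. All 3 empty vector libraries were above all R787G and WT libraries, and the libraries labelled G1242V spanned the gap. Mean VEL1 was 26.1 ± 16.1 in R787G, 66.3 ± 28.2 in G1242V, 124 ± 33.1 in the empty vector and 37.3 ± 13.4 in WT (SD, n = 3 each). R787G and WT, the lowest neighbours in that order, overlapped, and the libraries labelled G1242V overlapped each of the other groups.

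YOR387C stood at 75.4, 52.7 and 4.36 scaled TPM in R787G, at 266, 68.2 and 356 in the libraries labelled G1242V, at 418, 767 and 255 in the empty vector, and at 61.1, 105 and 19.8 in WT. The order of the groups was that of VEL1, and again all empty vector libraries lay above all R787G and WT libraries. From the lowest to the highest library VEL1 spanned 19.1-fold and YOR387C 176-fold. The ratio of YOR387C to VEL1 moved as well. It was 0.572 to 2.03 in R787G, 1.92 to 3.92 in the libraries labelled G1242V, 2.96 to 5.28 in the empty vector and 0.892 to 2.21 in WT, and it was above 1 in all but library 3 of R787G and of WT.

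**Figure D1:**
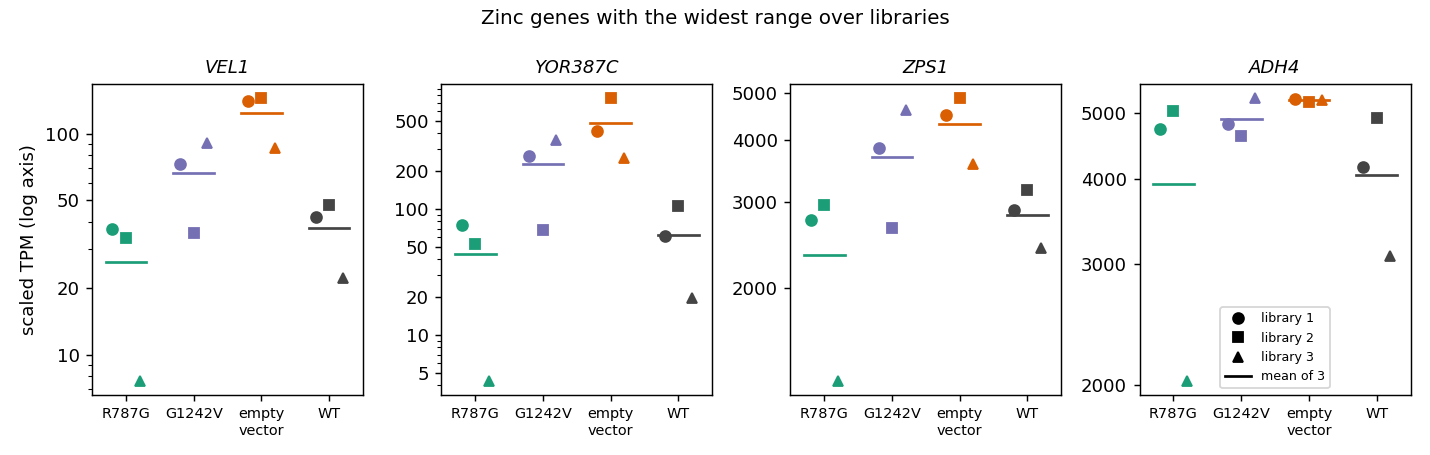
Scaled TPM (log axis) of VEL1, YOR387C, ZPS1 and ADH4 in each library, by plasmid group; symbols mark the library number and lines the mean of 3. The empty vector libraries lie above all WT libraries in each panel, and library 3 (triangles) is lowest in R787G and in WT.

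Empty vector against WT compares cells without and with a plasmid copy of SCC2 after 3 h of auxin. Levels with the empty vector were above those of WT in every library for 9 of the 10 zinc genes, against 17.3% of the 6097 features tested. None of the 10 passed limma's test at an adjusted p under 0.05, where 2.64% of all features did; 6 of the 10 had an unadjusted p under 0.05, of 1747 features among 6097. The median log2 fold change of the 10 was 0.37, against -0.01 over all features tested. These 3 empty vector libraries are also those of the contrast that drew attention to VEL1. The counts here, and the ranks of VEL1 and its paralog below, are therefore given as a description.

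VEL1 and YOR387C had the largest folds. By means, VEL1 was 3.33-fold and YOR387C 7.73-fold higher in the empty vector than in WT. On the log2 scale the difference was 1.74 (SE 0.54) for VEL1 and 3.08 (SE 0.98) for YOR387C, and 2.66 for the 2 summed into 1 feature. Of the 5701 features whose mean TPM reached 5, YOR387C had the highest fold of this contrast and VEL1 the fifth highest. Both also varied widely within groups. The within-group SD on the log2 scale was 0.78 for VEL1, above 99.8% of these features, and 1.41 for YOR387C, above 99.98%, where the median feature had 0.11.

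ZAP1 (YJL056C, chrX:330431-333073), the regulator itself, stood at 333, 321 and 299 scaled TPM in the empty vector, against 258, 266 and 225 in WT. The groups did not overlap, and the log2 fold change was 0.35 (SE 0.10, limma adjusted p = 0.0778). In R787G its levels were 248, 227 and 203, overlapping WT, and in the libraries labelled G1242V 284, 248 and 308.

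ZRT1 (YGL255W, chrVII:20978-22108), the high-affinity uptake transporter of the plasma membrane, was among the most abundant transcripts of these cells. By mean level it ranked 22nd of 7033 features. It stood at 5027, 5264 and 4656 scaled TPM in the empty vector and at 4213, 4404 and 4359 in WT, a log2 fold change of 0.20 (SE 0.10, limma adjusted p = 0.217). R787G had 4386, 4353 and 3744, and the libraries labelled G1242V 4873, 4837 and 5305, all 3 above WT.

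ZRT2 (YLR130C, chrXII:402794-404062), the low-affinity uptake transporter, which Zap1 is known to repress again in severe zinc deficiency, showed the widest difference among the transporters. Its levels were 479, 526 and 449 scaled TPM in the empty vector and 344, 368 and 292 in WT. The log2 fold change was 0.54 (SE 0.15, limma adjusted p = 0.0668). In R787G it ranged widely, at 403, 345 and 264, while the libraries labelled G1242V had 473, 390 and 472.

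ZRT3 (YKL175W, chrXI:118793-120304) releases zinc from the vacuole. It stood at 712, 672 and 632 scaled TPM in the empty vector, against 570, 556 and 521 in WT (log2 fold change 0.29, SE 0.11, limma adjusted p = 0.114). ZRG17 (YNR039C, chrXIV:697614-699431) forms with Msc2 a transporter of the early secretory pathway. It stood at 148, 147 and 143 in the empty vector, against 121, 126 and 111 in WT (log2 fold change 0.29, SE 0.08, limma adjusted p = 0.0692). Neither gene's groups overlapped. R787G had 437 to 582 scaled TPM of ZRT3 and 102 to 118 of ZRG17, both overlapping WT.

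**Figure D2:**
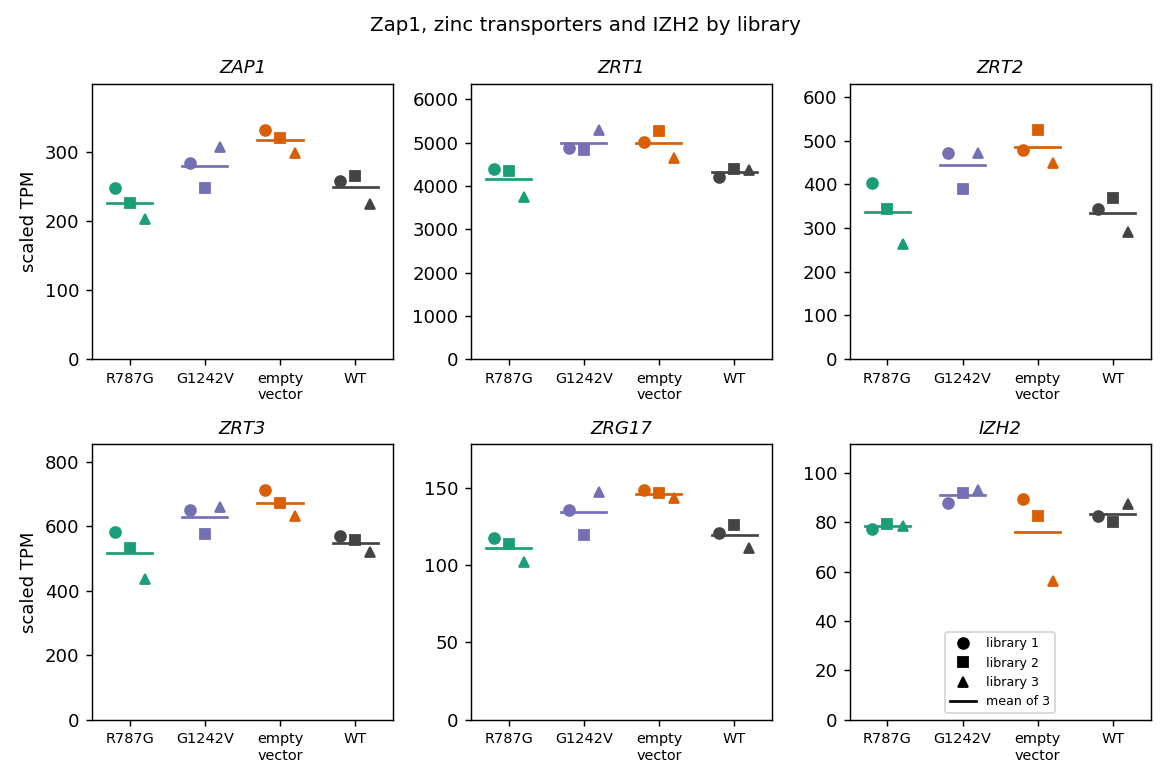
Scaled TPM (axes from 0) of ZAP1, the transporter genes ZRT1, ZRT2, ZRT3 and ZRG17, and IZH2 in each library, by plasmid group; lines mark the mean of 3. For the first 5 genes all empty vector libraries lie above all WT libraries; IZH2 overlaps, with empty vector library 3 at 56.4.

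ADH4 (YGL256W, chrVII:15159-16307), an alcohol dehydrogenase made under zinc limitation, and ZPS1 (YOL154W, chrXV:34658-35407), a cell-surface protein, ranked 23rd and 32nd of 7033 features by mean level. ADH4 stood at 5252, 5197 and 5234 scaled TPM in the empty vector and at 4164, 4912 and 3085 in WT (log2 fold change 0.39, SE 0.29, limma adjusted p = 0.393), or 0.21 without WT library 3. The empty vector libraries were nearly equal while WT varied. ZPS1 stood at 4498, 4883 and 3580 in the empty vector and at 2879, 3173 and 2419 in WT (log2 fold change 0.61, SE 0.30, limma adjusted p = 0.2).

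IZH2 (YOL002C, chrXV:323411-324364), a membrane protein related to adiponectin receptors, did not follow the other 9. It stood at 89.4, 82.5 and 56.4 scaled TPM in the empty vector and at 82.5, 80.0 and 87.4 in WT, so the groups overlapped. Its log2 fold change was -0.15 (SE 0.13, limma adjusted p = 0.452) and became 0.05 without empty vector library 3. In R787G it was at 77.3, 79.3 and 78.6, and in the libraries labelled G1242V at 88.0, 91.9 and 93.0.

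Other genes reported as Zap1 targets were taken as a list of 19, all of them tested. With the empty vector 2 of 19 rose against WT and none fell, where 1.13% of all features were called higher; 9 of 19 lay above WT without overlap, against 17.3%. The list's median log2 fold change was 0.17, against -0.01 over all features. The 2 that rose were NRG2, a repressor in glucose signalling, and ZRG8, a zinc-regulated gene. NRG2 was at 69.6 ± 13.9 scaled TPM in the empty vector and 39.0 ± 6.95 in WT (SD, n = 3; log2 fold change 0.82, SE 0.18, limma adjusted p = 0.0491). ZRG8 was at 38.5 ± 2.04 in the empty vector and 31.1 ± 2.68 in WT (0.30, SE 0.07, limma adjusted p = 0.0491). The count was 0 without each empty vector library, each WT library, R787G library 1, R787G library 2 or library 1 labelled G1242V, was 5 when R787G library 3 was left out and 4 when library 2 labelled G1242V was, and was 0 with the replicate block.

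FET4, a low-affinity transporter of iron that also carries zinc, had the highest fold of that list without passing. It stood at 98.3, 143 and 88.5 scaled TPM in the empty vector, against 55.8, 73.3 and 30.5 in WT (log2 fold change 1.09, SE 0.42, limma adjusted p = 0.126). CKI1, choline kinase (0.37, SE 0.10, limma adjusted p = 0.0591), ADE17, of purine synthesis (0.34, SE 0.10, limma adjusted p = 0.0778), RAD27, a flap endonuclease (0.33, SE 0.08, limma adjusted p = 0.0509), and IZH1 (0.29, SE 0.12, limma adjusted p = 0.139) did not pass either, and none of these overlapped WT. TSA1, a peroxiredoxin, had the lowest fold of the list (-0.10, SE 0.09), and 16 of the 19 were above 0. An exact element match lay before MCD4, and a match with up to 1 mismatch before ZRC1, IZH1, DPP1, MCD4 and KTR6; NRG2, FET4 and ZRG8 had none of that kind in the window.

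**Figure D3:**
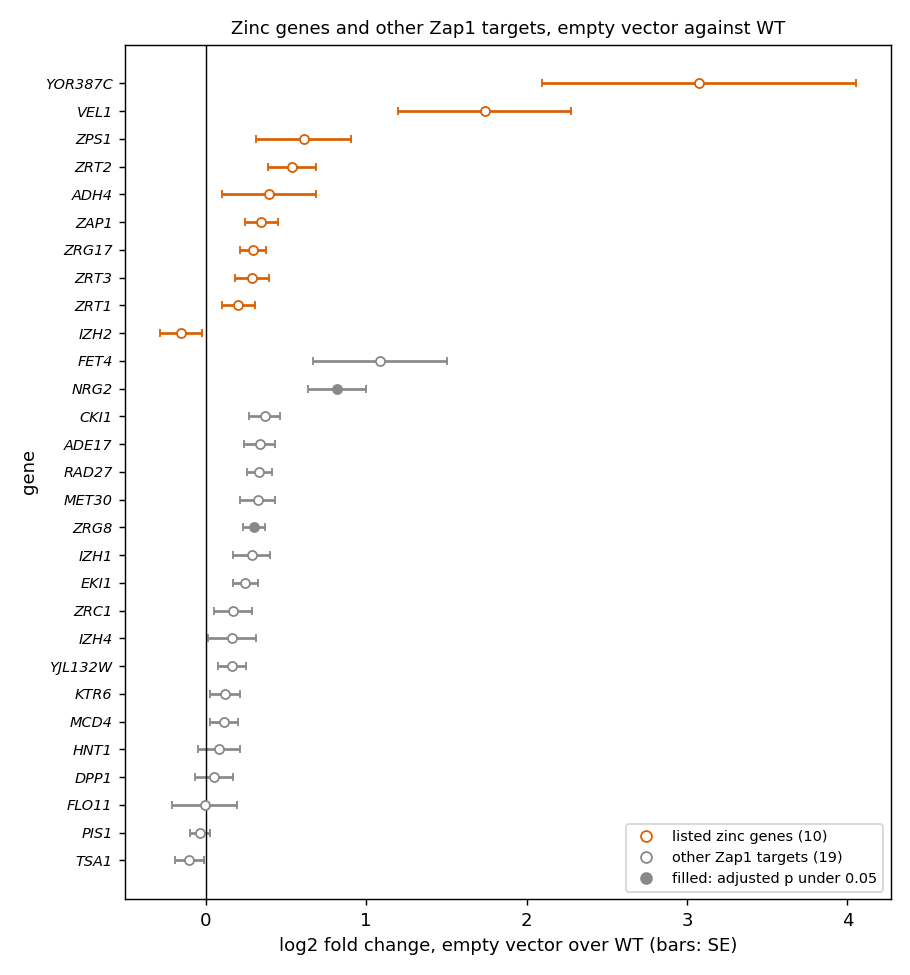
Log2 fold change of the empty vector over WT with its SE for the 10 zinc genes (upper block) and 19 other Zap1 targets (lower block); filled points have a limma adjusted p under 0.05. YOR387C (3.08) and VEL1 (1.74) stand at the right, IZH2 (-0.15) left of 0, and NRG2 and ZRG8 are filled.

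A pair of alcohol dehydrogenase genes is known to be switched off in zinc-deficient cells, through intergenic RNAs that Zap1 induces: ADH1, the main fermentative enzyme, and mitochondrial ADH3. Neither was called in any of the 6 contrasts. ADH3 stood at 146, 179 and 163 scaled TPM in R787G, at 143, 155 and 137 in the libraries labelled G1242V, at 133, 136 and 143 in the empty vector, and at 134, 129 and 145 in WT. R787G lay above WT without overlap (log2 fold change 0.25, SE 0.08, limma adjusted p = 0.548) and above the empty vector (0.24, SE 0.08, limma adjusted p = 0.129). ADH1 stood at 401, 585 and 584 scaled TPM in R787G, at 349, 395 and 351 in the libraries labelled G1242V, at 390, 360 and 366 in the empty vector, and at 372, 371 and 445 in WT. Its log2 fold change in R787G was 0.38 (SE 0.14, limma adjusted p = 0.611) against WT, with overlap, and 0.47 (SE 0.14, limma adjusted p = 0.0885) against the empty vector, without. ADH4 exceeded ADH1 in all 12 libraries, by 3.47- to 11.8-fold in R787G, 11.7- to 15.0-fold in the libraries labelled G1242V, 13.5- to 14.5-fold in the empty vector and 6.93- to 13.2-fold in WT. Of the 998 windows of 50 bases in ADH1, 140 also occur elsewhere in the genome, so how such reads were assigned can bear on its TPM, while none of the ADH3 windows do. Its promoter also drives OsTIR1 in every strain.

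Other zinc transporters were followed as a list of 4. COT1, of the vacuole, MSC2, the partner of Zrg17, YKE4, of the endoplasmic reticulum, and PHO84, a phosphate transporter that carries metals, gave no call in any contrast. MSC2 stood at 41.4, 42.3 and 41.7 scaled TPM in the empty vector and at 36.9, 37.2 and 37.1 in WT (log2 fold change 0.17, SE 0.05, limma adjusted p = 0.0869). YKE4 lay the other way, at 71.6, 75.6 and 58.5 in the empty vector and at 82.4, 83.4 and 91.1 in WT (-0.32, SE 0.12, limma adjusted p = 0.109). PHO84 ranged widely within groups, at 18.2, 37.2 and 13.9 in R787G, 16.7, 16.6 and 12.3 in the libraries labelled G1242V, 14.3, 35.2 and 13.0 in the empty vector and 17.8, 18.6 and 12.4 in WT. Of the other IZH genes, IZH3 and IZH4 were not called in any contrast.

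R787G against WT asks whether this Scc2 change alters the regulon with the tagged chromosomal copy degraded. No feature at all was called in this contrast (0.00%), and 419 of 6097 had an unadjusted p under 0.05, none of them among the 10 zinc genes. The 10 log2 fold changes had a median of -0.11, from -0.88 (SE 0.98) for YOR387C to -0.00 (SE 0.15) for ZRT2, and over all features the median was 0.00. For VEL1 it was -0.70 (SE 0.54). IZH2 alone lay lower in R787G without overlap, 1 of 10 against 5.77% of all features. R787G library 3 set much of this. It was the lowest of all 12 libraries in 9 of the 10 genes, IZH2 excepted, with VEL1 at 7.62, YOR387C at 4.36, ZPS1 at 1297 and ADH4 at 2027 scaled TPM. How many of all features were lowest in that library was not counted. Without R787G library 3 the log2 fold change against WT was -0.01 for VEL1, 0.03 for ZPS1, 0.31 for YOR387C and 0.30 for ADH4, in place of -0.70, -0.35, -0.88 and -0.13.

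Same-numbered libraries of R787G and WT deviated together, with correlations of 0.329, 0.191 and 0.618 over features, so these 2 groups were also compared pair by pair. VEL1, ZAP1, ZRG17, ZPS1 and IZH2 were lower in R787G in 3 of 3 pairs, and ADH4 in 1 of 3. How many of all features were lower in 3 of 3 pairs was not counted, so nothing is read from these counts. The VEL1 difference was -0.17, -0.49 and -1.43 on the log2 scale. With the replicate block and only these 2 groups fitted, none of the 10 was called; the limma adjusted p was 0.407 for VEL1 and 0.541 for ZAP1.

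WT library 3 was low in the same genes, and the lowest of its group in each of the 10 but ZRT1 and IZH2. Relative to the mean of WT, VEL1 was at -2.08 in R787G library 3 and at -0.65 in WT library 3 on the log2 scale, and YOR387C at -3.27 and at -1.31. Empty vector library 3 was the lowest of its group in 9 of the 10, ADH4 excepted, but stayed above all WT libraries in those 9 except IZH2. In library 3 labelled G1242V the values were instead the highest of that group, apart from ZRT2. Same-numbered libraries were thus not low throughout, and the labels do not say what the numbers share. Such counts were not made over all features.

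**Figure D4:**
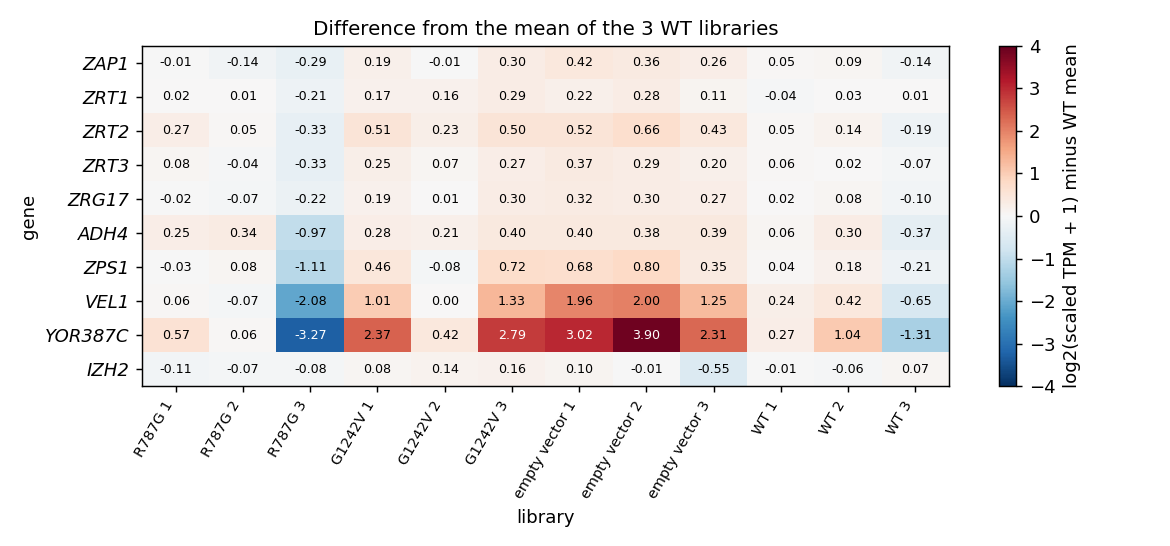
Log2(scaled TPM + 1) minus the mean of the 3 WT libraries for the 10 zinc genes (rows) in 12 libraries (columns), with the value in each cell. Rows other than IZH2 are positive in the empty vector and in libraries 1 and 3 labelled G1242V, and negative in R787G library 3.

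The libraries labelled G1242V, set against WT, have to be read one by one because their SCC2 levels were unequal. As a group none of the 10 zinc genes was called, against 4.58% of all features, and 1 had an unadjusted p under 0.05, of 1640 features among 6097. All 10 folds were above 0 with a median of 0.25, against 0.01 over all features, and 4 of 10 lay above WT without overlap (ZRT1, ZRT2, ZRT3 and IZH2), against 20.8%. Library 1 exceeded the highest WT library in 9 of the 10 genes, library 3 in all 10, and library 2 in 4 of the 10. The share of all features above WT in each single library was not counted, so these counts are a description.

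VEL1 shows the split. Relative to the mean of WT its log2 difference was 1.01 in library 1, 0.00 in library 2 and 1.33 in library 3 labelled G1242V, and that of YOR387C was 2.37, 0.42 and 2.79. ZPS1 followed, at 0.46, -0.08 and 0.72, and ZAP1 at 0.19, -0.01 and 0.30. SCC2 RNA was 51.2, 93.2 and 12.4 scaled TPM in the same libraries. Library 2, with the most SCC2 RNA of these, was the one near WT in VEL1, ZPS1 and ZAP1. ZRG17 (0.19, 0.01 and 0.30), ZRT3 (0.25, 0.07 and 0.27) and ZRT2 (0.51, 0.23 and 0.50) were also lowest in library 2. The split was small in ADH4 (0.28, 0.21 and 0.40) and nearly absent between libraries 1 and 2 in ZRT1 (0.17, 0.16 and 0.29). In IZH2 (0.08, 0.14 and 0.16) library 1 was the lowest. With libraries 1 and 3 left out, the G1242V fold against WT was 0.00 for VEL1, 0.42 for YOR387C, -0.01 for ZAP1 and -0.08 for ZPS1, in place of 0.78, 1.86, 0.16 and 0.36.

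**Figure D5:**
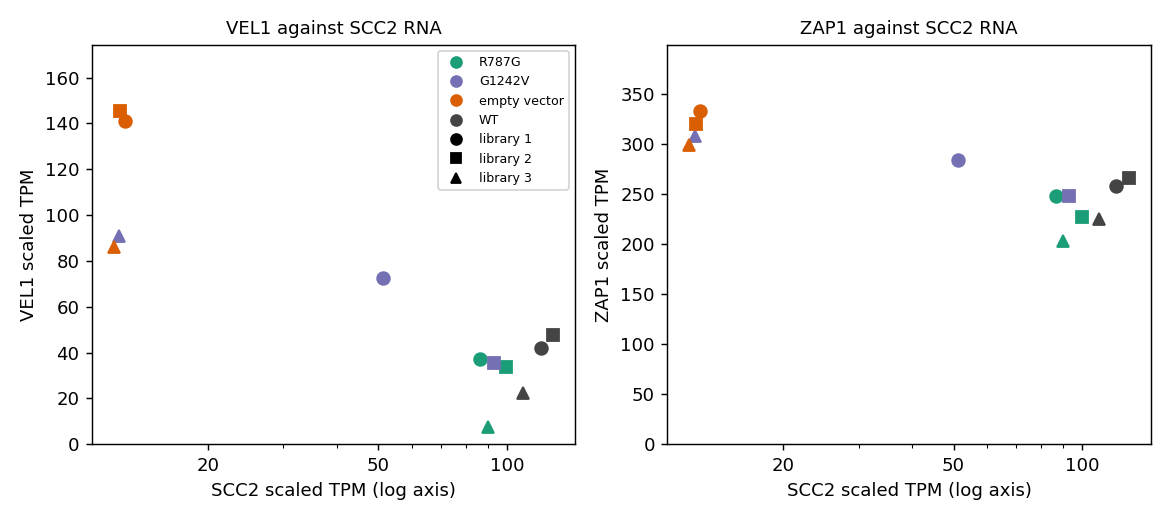
Scaled TPM of VEL1 (left) and ZAP1 (right) against SCC2 RNA (log axis) in each library; colours mark the plasmid group and symbols the library number. The 4 libraries with SCC2 near 12 have 86.0 to 145 of VEL1, library 1 labelled G1242V with SCC2 at 51.2 has 72.6, and the other 7 have 7.62 to 47.7. VEL1 was picked for being lower in R787G than in the empty vector.

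The libraries thus fall into separate sets by SCC2 RNA, so no correlation with SCC2 is given. The 4 libraries with SCC2 near 12 scaled TPM, the 3 of the empty vector and library 3 labelled G1242V, held 299 to 333 of ZAP1. Library 1 labelled G1242V held 284, and the other 7 held 203 to 266. The 7 with SCC2 of 86.5 or more also held the lowest VEL1 levels. VEL1 was picked for being lower in R787G than in the empty vector, so the order of those libraries follows from that choice. HIS3 RNA was at 2423 to 3500 scaled TPM in the 5 libraries with SCC2 of 51.2 or less and at 796 to 1353 in the other 7, so the levels of SCC2 and of HIS3 cannot be told apart here.

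In the libraries labelled G1242V against the empty vector none of the 10 zinc genes was called, against 0.148% of all features, and none had an unadjusted p under 0.05, of 1127 features among 6097. The log2 fold change was -0.96 (SE 0.54) for VEL1 and -1.21 (SE 0.98) for YOR387C, and 0 of the 10 stood apart without overlap, against 26.1%. With library 2 alone they were -1.74 and -2.65. In R787G against the libraries labelled G1242V no feature was called (0.00%), and 8 of the 10 had an unadjusted p under 0.05, of 1228 features among 6097. VEL1 differed by -1.48 (SE 0.54) and YOR387C by -2.74 (SE 0.98) in that contrast, and ZRT1, ZRG17 and IZH2 lay lower in R787G without overlap, 3 of 10 against 12.5%.

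R787G against the empty vector is the contrast that drew attention to VEL1. In it 9 of the 10 zinc genes were lower in every R787G library than in every empty vector library, where 11.3% of all features were, and IZH2 overlapped. VEL1 was at 26.1 ± 16.1 scaled TPM in R787G and 124 ± 33.1 in the empty vector, a 4.75-fold difference of means, and YOR387C at 44.2 ± 36.3 and 480 ± 262, a 10.9-fold difference (SD, n = 3 each). The log2 fold changes were -3.96 (SE 0.98) for YOR387C, -2.44 (SE 0.54) for VEL1 and -0.96 (SE 0.30) for ZPS1. For the others they were -0.54 (SE 0.15) for ZRT2, -0.52 (SE 0.29) for ADH4, -0.49 (SE 0.10) for ZAP1, -0.40 (SE 0.08) for ZRG17, -0.39 (SE 0.11) for ZRT3, -0.26 (SE 0.10) for ZRT1 and 0.07 (SE 0.13) for IZH2. Limma called ZAP1, ZRG17 and VEL1 lower and not YOR387C, whose fold and spread were both larger; over all features 0.623% were called lower. VEL1 was picked out by its call in this contrast, so no weight is put on that count of 3. The same holds for the 9 of 10 without overlap.

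The 3 calls did not stand without single libraries. Their count was 0 without R787G library 2 or 3, library 1 labelled G1242V, or any 1 library of the empty vector or of WT, and with the replicate block. It was 6 without R787G library 1. The folds kept their sign for all 9 genes other than IZH2 under each alternative run, but not their size. Without R787G library 3 the log2 fold change was -0.10 for ADH4 and -0.58 for ZPS1, in place of -0.52 and -0.96, and with TPM as deposited it was -0.42 for ZRT1, in place of -0.26.

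In the same contrast 3 of the 19 other Zap1 targets fell in R787G and none rose, beside 0.623% of features called lower, with a list median of -0.21. They were NRG2 (38.4 ± 5.63 scaled TPM in R787G and 69.6 ± 13.9 in the empty vector; log2 fold change -0.83), IZH1 (124 ± 16.2 in R787G and 177 ± 6.04 in the empty vector; -0.53) and RAD27 (27.3 ± 2.08 in R787G and 36.5 ± 1.47 in the empty vector; -0.40). Their limma adjusted p-values were 0.0418, 0.0418 and 0.0369. The count was 0 without R787G library 2 or 3, library 1 labelled G1242V, or any 1 library of the empty vector or of WT, and with the replicate block. The empty vector libraries are shared with the comparison against WT above, so the lists of the 2 contrasts are not independent.

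The 9 zinc genes other than IZH2 varied together. Over the 12 libraries their 36 pairwise Pearson correlations on the log2 scale ran from 0.75 to 0.99, with a median of 0.93. With the group means taken out they ran from 0.67 to 0.98, with a median of 0.88. Libraries of 1 group that were low in one of these genes thus tended to be low in the others. This did not hold throughout, as empty vector library 2 was the lowest of its group in ADH4 and the highest in VEL1. IZH2 correlated with the other 9 between -0.04 and 0.29. The points share libraries and library factors, and these values are a description.

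VEL1, ADH4 and ZRT1 are near neighbours. They lie in that order on chromosome VII, with MNT2, a mannosyltransferase gene (YGL257C, chrVII:12481-14157), between VEL1 and ADH4. MNT2 stood at 99.7, 101 and 93.0 scaled TPM in the empty vector and at 75.5, 82.9 and 67.5 in WT (log2 fold change 0.38, SE 0.14, limma adjusted p = 0.125), without overlap. YGL258W-A, on the other side of VEL1, stood at 15.4, 12.8 and 12.1 in the empty vector and at 13.2, 13.7 and 11.9 in WT. FZF1, a sulfite-response regulator next to ZRT1, stood at 17.4, 17.9 and 17.0 in the empty vector and at 19.2, 16.3 and 21.4 in WT. Both genes overlapped between the groups and neither was called in any contrast.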

How the data were processed

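The deposited table gives TPM per gene and library, which the authors named RSEM TPM. The submitters' processing notes list bcl2fastq 2.17, STAR, RSEM, edgeR and the build sacCer3, with no role or order. TPM summed to 999546 to 999718 per library and keeps no depth. Libraries were stranded and ribosomal RNA depleted, per the labels' protocols; whether counting used strand is not given in the sources used here. From 7036 features, 3 with shifted values were left out, and 248 of the rest had values identical to another feature. A median-of-ratios factor per library, from the 5421 features without a zero whose mean TPM reached 10, divided the TPM. Limma 3.58.1 (R 4.3.3) then tested log2(scaled TPM + 1) of the 6097 features whose mean TPM reached 1. The fit held all 12 libraries with group as its only term and a variance trend, tests were two-sided, and residual and prior degrees of freedom were 8 and 3.20. The procedure was tested on simulated data. P-values were adjusted per contrast by Benjamini-Hochberg over all 6097 features, and a call means an adjusted p under 0.05. Fold changes are on this scale and understate low genes. P-values measure the spread between libraries, which may be technical. The smallest p that an exact permutation test of 3 against 3 allows is 0.1, and no such test is reported.

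The 10 genes and the lists of other Zap1 targets, transporters and neighbours were chosen with earlier results of these data known. Named were all 10 genes, list members called in any contrast, the 4 largest folds of the other targets, neighbours of VEL1, YOR387C and ZPS1 that were called or adjoin them, and for likeness the 5 features of highest Pearson r to VEL1 and to ZRT1. Sequences and positions are from RefSeq R64, the assembly behind sacCer3; the table holds no coordinates. The labels do not say that replicate numbers pair libraries. Deviations of same-numbered libraries correlated above 0.1 in 8 of 18 pairs, in 3 of 3 only between R787G and WT, where paired values are given.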

Additional observations from a re-analysis of the deposited data

How the results depend on the processing

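Depth is unknown, 3 libraries a group limit the tests, and most calls near the threshold were lost when 1 library was left out; the cause was not tested. Between the empty vector and WT the zinc genes called (0) became 1 with TPM as deposited and with only the 2 groups fitted, and ranged from 0 to 3 when 1 library was left out (3 without R787G library 3, 1 without library 2 labelled G1242V). The other Zap1 targets called (2) became 1 with only the 2 groups fitted and 0 with no filter, no variance trend, the replicate block or without library 3 of R787G and of WT (an alternative chosen after seeing the data), and ranged from 0 to 5 without 1 library. Between G1242V and WT the other targets called (0) became 1 with only the 2 groups fitted, and ranged from 0 to 1 without 1 library (1 without empty vector library 3). Between R787G and the empty vector the zinc genes called (3) became 8 with TPM as deposited, 5 with quantile normalization, and 0 with only the 2 groups fitted, the replicate block or without library 3 of R787G and of WT; without 1 library they ranged from 0 to 6. The other targets called there (3) became 7 with TPM as deposited, 1 with no filter or no variance trend, and 0 with only the 2 groups fitted, the replicate block or without library 3 of R787G and of WT; without 1 library they ranged from 0 to 3. In the other 3 contrasts, and for the zinc genes between G1242V and WT, the counts were 0 under every alternative run.

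TPM as deposited moved the median of all features by -0.15 in R787G and by -0.12 in G1242V against the empty vector, and the zinc gene folds move with it. Calls over all features were 154 higher of 206 with TPM as deposited and 82 of 151 with quantile normalization for the empty vector against WT (69 of 161 otherwise), 39 of 57 with TPM as deposited for G1242V against WT (121 of 279), and 69 of 288 and 87 of 134 for R787G against the empty vector (106 of 144). They also became 0 with no filter, no variance trend or the replicate block for the empty vector against WT, 823 with only the 2 groups fitted and 7 without libraries 1 and 3 for G1242V against WT, and 80 with only the 2 groups fitted, 95 with no variance trend and 68 with the block for R787G against the empty vector. Without library 3 of R787G and of WT they were 0 for the empty vector against WT, 66 for G1242V against WT and 0 for R787G against the empty vector. When 1 library was left out they ranged from 0 to 415 for the empty vector against WT, 0 to 8 for R787G against WT, 3 to 418 for G1242V against WT, 0 to 415 for R787G against the empty vector, 0 to 30 for G1242V against the empty vector and 0 to 135 for R787G against G1242V. For G1242V against the empty vector 9 became 0 with TPM as deposited or only the 2 groups fitted, 94 without libraries 1 and 3, and 14 with the block; for R787G against WT 0 became 3 with only the 2 groups fitted and 5 with the G1242V libraries out of the fit. With the replicate block and only the 2 groups fitted (chosen after seeing the data), R787G against WT gave 1 call over all features and 0 among the zinc genes and targets. In the other contrasts same-numbered libraries did not all deviate together (6 of 12 correlated best with their own number), so calls lost under the block are not read further. Between the empty vector and WT the fold stayed above 0 under all alternatives for the 9 genes other than IZH2. It ran from 2.42 to 3.60 for YOR387C, and its lowest value for VEL1 was 1.41. The highest value entered for VEL1, 2.66, was that of the 2 genes summed.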

Other observations

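Of 5658 features ranked, all with a mean TPM reaching 5, the 5 whose log2 levels were most like VEL1 over the 12 libraries were QDR2, a plasma membrane exporter (Pearson r = 0.96, Spearman rho = 0.97), LAP3, a cysteine aminopeptidase (0.96 and 0.90), ARG3, ornithine carbamoyltransferase (0.95 and 0.98), AVO1, of the TORC2 complex (0.95 and 0.95), and GEP5, a mitochondrial protein (0.94 and 0.95). Their range over the libraries was narrower than that of VEL1, from 0.12 on the log2 scale for AVO1 to 1.15 for QDR2. The 5 most like ZRT1 were ATG19, a receptor of selective autophagy (0.96 and 0.96), RTC4 (0.96 and 0.94), CWC24, a splicing factor (0.95 and 0.90), MNT3, a mannosyltransferase (0.95 and 0.96), and TPO1, a polyamine exporter (0.95 and 0.97). These are the extremes of a ranking over few libraries and are a description. RTC4 was called higher in the empty vector than in WT (log2 fold change 0.59, SE 0.13, limma adjusted p = 0.0491), where 1.13% of all features were. It was picked for following ZRT1, which lay above WT in every empty vector library, so nothing is read from that call.

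Of the genes next to YOR387C, PHR1 and FDH1 were not called in any contrast. PHR1 lay higher in the empty vector than in WT without overlap (log2 fold change 0.20, SE 0.05, limma adjusted p = 0.0635), as did 17.3% of all features. YOR385W, the second gene from YOR387C on chromosome XV, was called in the libraries labelled G1242V against WT. It stood at 55.5, 55.4 and 64.5 scaled TPM in the libraries labelled G1242V and at 42.2, 41.5 and 45.9 in WT (log2 fold change 0.43, SE 0.08, limma adjusted p = 0.020). This was the 1 call among 26 neighbours tested, where 1.98% of all features were called higher, so nothing is read from it. Next to ZPS1, FRE7, a metalloreductase gene, was at 1.16 to 1.83 scaled TPM in the empty vector and 0.782 to 1.79 in WT. HPF1, a cell wall mannoprotein gene also next to ZPS1, stood at 187, 162 and 182 scaled TPM in the empty vector and at 261, 295 and 278 in WT, without overlap. Neither was called between the empty vector and WT, and 18.4% of all features lay lower in the empty vector without overlap.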
